A study of Mus musculus with 9 samples.

Results

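Heat shock proteins and the chaperones that work with them were followed in HL-1 cells, a line of mouse atrial cardiomyocytes, after treatment with ivermectin, importazole or vehicle. Members were chosen by symbol: the HSP70, small heat shock protein, DNAJA, DNAJB, DNAJC and CCT series, with Hsp90aa1, Hsp90ab1, Hsph1, Cryab, Bag3 and the mitochondrial chaperonin genes Hspd1 and Hspe1. Hspa5, Dnajb9, Dnajb11 and Dnajc3 of the endoplasmic reticulum and pseudogenes with a hyphen in their symbol were left out. The rule found 78 of the 25175 symbols in the files. Of these, 66 reached 1 FPKM (fragments per kilobase of transcript, scaled to the depth of the library) in at least 3 of the 9 libraries and were tested among 11337 genes. The other 12 did not reach it and were not tested.

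Chaperones bind unfolded or partly folded proteins and release them for folding, transport or degradation. HSP70 does so in cycles of ATP hydrolysis that J-domain proteins (the DNAJ families) start and exchange factors such as HSP110 and BAG proteins end, while HSP90 and the ring-shaped chaperonins take over particular clients. Small heat shock proteins hold unfolded protein without ATP, and in heart muscle Cryab, Hspb7 and their relatives guard the sarcomere and the desmin network. After heat or misfolding stress the transcription factor HSF1 raises a subset of these genes, such as Hspa1a, Hspa1b, Dnajb1 and Bag3, whereas Hspa8 and Hsp90ab1 are made at all times.

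The 9 libraries came from HL-1 cells grown in Claycomb medium, with 3 libraries from cells in 5 µM ivermectin, 3 from cells in 10 µM importazole and 3 from cells in vehicle, 0.1% DMSO, all for 24 hours. Ivermectin is an antiparasitic macrocyclic lactone that is also used to block importin-dependent nuclear import, and importazole is an unrelated small molecule that acts on importin-β. HL-1 is an immortalised, dividing line, so it lacks the other cells of the heart. Nothing in the labels says that the replicates were separate cultures, so the p-values measure the spread between these libraries, which may be technical. Both comparisons with vehicle use the same 3 vehicle libraries, and the doses of the compounds differ, so their direct comparison holds for these doses only.

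Messenger RNA was captured, sequenced on an Ion Proton instrument and deposited as FPKM per gene. From 11055 to 11200 genes reached 1 FPKM in a library, and the steps between low values gave relative depths of 1 for the shallowest library, ivermectin 1, to 1.65 for the deepest, importazole 1. The 66 members took 1.28% to 1.45% of the summed FPKM of a library, or 1.41% to 1.45% without Yam1, a gene listed at 0 in vehicle 2 and ivermectin 3 and at 24051 to 41567 FPKM in the other 7. Libraries of 1 group correlated at 0.984 to 0.992 (Pearson's r, log2 scale), and libraries of different groups at 0.980 to 0.990. Of 8 cardiomyocyte markers, 8 passed the filter, and their summed level was 5868 to 6400 FPKM with ivermectin, 6355 to 6796 FPKM with importazole and 6700 to 7686 FPKM in vehicle. Of these markers, 0 were higher and 4 lower with ivermectin than in vehicle, and 1 was higher and 3 lower with importazole, at a limma adjusted p under 0.05. Of all genes tested, 1.79% were higher and 2.52% lower with ivermectin, and 1.69% were higher and 0.565% lower with importazole. In bulk RNA, a smaller share of cells that express a gene and less RNA per cell cannot be told apart. Fibroblast, endothelial and leukocyte markers were mostly low: of 6, 5 and 4 markers, 1 of each list passed the filter. These were Col1a1, at most 1.24 FPKM, the endothelial marker Kdr, at 7.15 to 8.54 FPKM, and Cd68, at most 2.18 FPKM. Ptprc reached at most 0.133 FPKM and Cdh5 at most 0.0473 FPKM in any library, and the leukocyte marker Adgre1 was not listed. The smooth muscle list rested on Acta2, at 1020 to 1145 FPKM with ivermectin, 1021 to 1123 FPKM with importazole and 1175 to 1243 FPKM in vehicle, while Myh11 reached at most 0.119 FPKM.

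HSF1 binds heat shock elements, inverted repeats of the unit GAA. Promoter windows from 250 bases before to 50 bases after the annotated start were taken from RefSeq (GRCm38.p6) for the 51 members the table held. The motifs GAANNTTC and TTCNNGAA (2 units, each its own reverse complement, so that both strands are read at once) and the 3-unit forms GAANNTTCNNGAA and TTCNNGAANNTTC, which contain 2-unit matches, were searched. Some genes had more than 1 window, and a gene was counted once if any of its windows held a match. A 2-unit match was found for 19 of the 51 members (37.25%), against 13.5% of the 8395 genes tested that had a window. A 3-unit match was found for 4 of the 51 (7.84%), against 0.56%. A match describes the letters of a window and is not a binding site, and the lack of a match does not exclude one. The stretches below show the 4 members with 3 units and, for comparison, 4 heat-inducible members with 2-unit matches alone. Dnaja1, Dnaja4 and Dnajb4 also held 2-unit matches and are not shown. Dnajb1, named above among the genes that HSF1 raises, held no match, and Hsp90aa1 and Cryab were not searched. Each is written 5′ to 3′ on the strand of its gene, with the matched motif in capitals.
Hspe1, chr1:55088053-55088082, + strand: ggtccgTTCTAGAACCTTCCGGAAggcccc
Hspd1, chr1:55088053-55088082, − strand: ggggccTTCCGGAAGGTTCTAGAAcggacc
Dnajb6, chr5:29735843-29735872, + strand: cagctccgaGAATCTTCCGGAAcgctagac
Hsph1, chr5:149636287-149636316, − strand: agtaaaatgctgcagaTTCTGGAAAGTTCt
Hspa1b, chr17:34959324-34959353, − strand: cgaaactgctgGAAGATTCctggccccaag
Hspa1a, chr17:34972242-34972271, − strand: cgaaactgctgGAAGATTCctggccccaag
Hspb1, chr5:135887791-135887820, + strand: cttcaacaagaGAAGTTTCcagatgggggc
Bag3, chr7:128523603-128523632, + strand: ccaagttctctggatgggaccaGAAGTTTC
Hspe1 and Hspd1 are neighbours on opposite strands and share 1 stretch, read from either side. The stretches of Hspa1b and Hspa1a are identical letter for letter, as these genes are near-identical copies.

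The windows of Hspb7, Dnaja3 and Hspb11, which passed the test described below in at least 1 comparison, held no match, and those of Hspa9 and Cryab were not searched. For Hspb7, the member that was lower with both compounds, the 250 bases before the start are shown, with single GAA and TTC units in capitals. The window holds 13 of these units and no pair at the spacing searched.
Hspb7, chr4:141420529-141420778, + strand: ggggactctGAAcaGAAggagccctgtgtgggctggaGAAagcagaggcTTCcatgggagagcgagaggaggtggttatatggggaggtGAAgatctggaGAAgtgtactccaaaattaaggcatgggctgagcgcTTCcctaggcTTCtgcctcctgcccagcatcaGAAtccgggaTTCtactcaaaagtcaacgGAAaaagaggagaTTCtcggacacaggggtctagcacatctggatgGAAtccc

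The constitutive cytosolic chaperones dominated the levels. In vehicle, Hsp90ab1 averaged 1023 ± 120 FPKM and Hspa8 averaged 1006 ± 25.3 FPKM (SD, n = 3), ranks 32 and 34 of the genes tested. These 2 genes held 37.9% of the members' summed FPKM and the top 10 members held 68.5%. Cryab, at 253 ± 19.6 FPKM, and Hspb1, at 234 ± 11.7 FPKM (SD, n = 3), came next in vehicle. Cryab lay above Hspb1 within each vehicle library (273, 254 and 233 FPKM against 243, 239 and 221 FPKM). Their SDs overlap, and the difference was not tested. The pseudogene Hsp25-ps1 was listed at 77.5 to 87.5 FPKM in vehicle, and how reads were split between it and Hspb1 is unknown, so the level and place of Hspb1 are uncertain. In all, 14 members averaged at least 100 FPKM in vehicle and 21 averaged under 10 FPKM. The stress-inducible HSP70 genes were among the low ones, with Hspa1b at 5.13 ± 0.85 FPKM and Hspa1a at 1.85 ± 0.32 FPKM in vehicle (SD, n = 3).

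Few members passed the test, which was limma on log2(FPKM + 1) with a Benjamini-Hochberg adjusted p under 0.05 over all genes. With ivermectin, 5 of the 66 members (7.58%) passed against vehicle, while 4.31% of all genes did. Hspa9, Dnaja3 and Hspb11 rose (3 of 66, against 1.79% of all genes higher) and Cryab and Hspb7 fell (2 of 66, against 2.52% lower). With importazole, 2 members (3.03%) passed against vehicle, where 2.26% of all genes did. Hspa9 rose, as did 1.69% of all genes, and Hspb7 fell, as did 0.565%. Between ivermectin and importazole 1 member passed, Hspa9, which was higher with ivermectin. In that comparison 3.42% of all genes passed, 0.714% higher and 2.71% lower with ivermectin. Without vehicle 2 and ivermectin 3, 2 members passed with ivermectin, Hspa9 higher and Hspb7 lower. At an unadjusted p under 0.05, 24 of 66 members differed between ivermectin and vehicle (20.7% of all genes did), 17 between importazole and vehicle (15.8% of all genes) and 15 between ivermectin and importazole (19.0% of all genes). The median log2 change of the members was 0.02 for ivermectin and 0.03 for importazole, beside 0.01 and 0.04 over all genes. With ivermectin 29 of 66 members (43.9%) did not overlap with vehicle, 18 above and 11 below, where 24.6% of all genes did not. With importazole 18 of 66 (27.3%) did not overlap with vehicle, 12 above and 6 below, where 23.6% of all genes did not. The members and the other genes were not tested against each other.

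**Figure D1:**
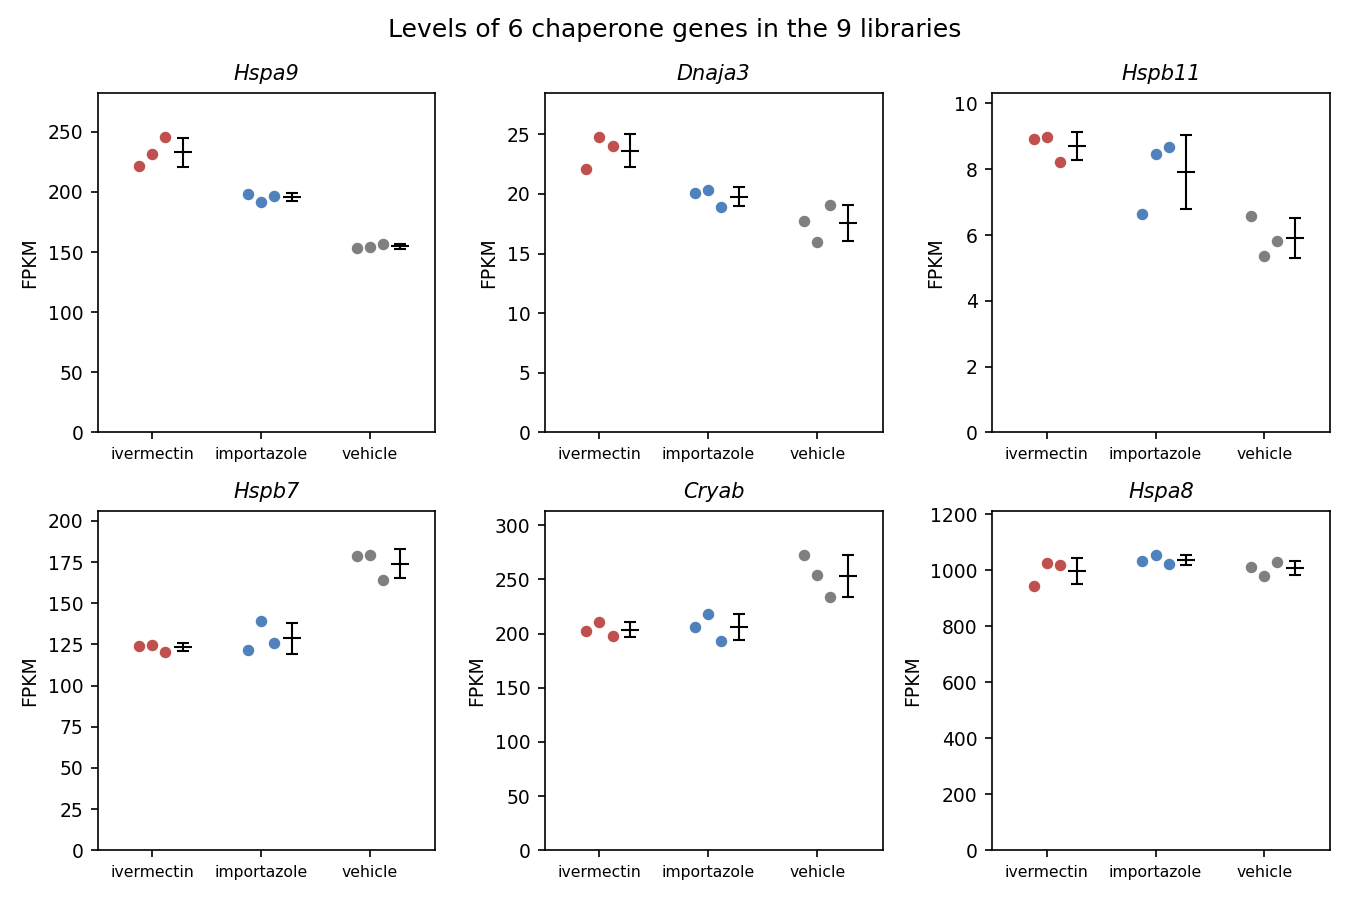
FPKM (vertical axis, from 0) of 6 chaperone genes in each library, with ivermectin, importazole and vehicle from left to right; points are libraries and the bar is the mean ± SD (n = 3). The 3 ivermectin libraries of Hspa9 lie between 222 and 245 FPKM and the 3 vehicle libraries between 153 and 157 FPKM, Hspb7 is lower with both compounds, and Hspa8 overlaps in the 3 groups.

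Hspa9, mortalin, is the HSP70 of mitochondria, where it pulls incoming proteins through the inner membrane and folds them. It had 222, 231 and 245 FPKM with ivermectin, 199, 192 and 197 FPKM with importazole, and 153, 154 and 157 FPKM in vehicle. The 3 groups did not overlap, with ivermectin highest and vehicle lowest. The log2 change against vehicle was 0.58 ± 0.06 (SE) with ivermectin, 1.50-fold, with a limma adjusted p of 0.000166. With importazole it was 0.34 ± 0.06 (SE), 1.26-fold, with a limma adjusted p of 0.00951. Between ivermectin and importazole the log2 difference was 0.25 ± 0.06 (SE), with a limma adjusted p of 0.0376. The importazole call ended without importazole 1 or without vehicle 2, where its limma adjusted p was at most 0.055, and the direct call held under 8 of 20 alternatives. The gene lies at 34937414 to 34954357 on chromosome 18 (− strand, GRCm38). A pseudogene, Hspa9-ps1, was listed at 15.1 to 18.0 FPKM with ivermectin, 12.4 to 13.9 FPKM with importazole and 9.52 to 10.8 FPKM in vehicle, and the sources used here do not give how reads were split between the 2 genes.

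Dnaja3, the mitochondrial J-domain partner of Hspa9, was higher with ivermectin. It had 22.1, 24.8 and 24.1 FPKM with ivermectin, 20.1, 20.4 and 18.9 FPKM with importazole, and 17.7, 16.0 and 19.0 FPKM in vehicle. Every ivermectin library lay above every vehicle and importazole library, while importazole and vehicle overlapped. The log2 change was 0.41 ± 0.08 (SE) with ivermectin (limma adjusted p 0.016). With importazole it was 0.16 (95% interval −0.01 to 0.34, limma adjusted p 0.343). The ivermectin call held under 15 of 20 alternatives and ended, among others, without vehicle 2 or ivermectin 2, which took the adjusted p to at most 0.125. Dnaja3 (chromosome 16, 4639989 to 4707695, + strand, GRCm38) shares exon bases with Coro7 on the opposite strand and Vasn on its own strand. The sources used here do not say whether counting used strand, so its level is uncertain to that extent.

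The mitochondrial chaperonin, the barrel formed by Hspd1 (HSP60) with its lid Hspe1 (HSP10), folds proteins after import. Hspd1 had 217, 225 and 245 FPKM with ivermectin, 204, 203 and 203 FPKM with importazole, and 202, 185 and 192 FPKM in vehicle. Hspe1 had 84.5, 97.4 and 118 FPKM with ivermectin, 98.7, 90.3 and 86.8 FPKM with importazole, and 78.8, 73.1 and 72.0 FPKM in vehicle. For both genes all ivermectin and all importazole libraries lay above all vehicle libraries, though by under 1 FPKM for Hspd1 with importazole. The log2 changes with ivermectin were 0.24 (95% interval 0.11 to 0.38) for Hspd1 and 0.40 (0.17 to 0.64) for Hspe1, and neither passed (limma adjusted p 0.0549 and 0.0584). With importazole they were 0.08 (−0.06 to 0.21) for Hspd1 and 0.30 (0.07 to 0.53) for Hspe1, and neither passed (limma adjusted p 0.607 and 0.19). Under quantile normalization, median-of-ratios scaling or equal sums without Yam1, both passed with ivermectin. These genes share the stretch with 4 units on end shown above. Their exons in the GENCODE annotation overlap by 112 bases on opposite strands.

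A group of 8 members known to act in mitochondria was put together after the values were seen and is not a full list. Of these 8, 7 had a positive log2 change with ivermectin, 5 did not overlap with vehicle and lay above it, and 2 passed the test. The counts describe the genes of the group and no more. Over all genes 12.4% lay above vehicle without overlap, 1.79% passed and were higher, and 6046 of 11337 had a positive change. The other members of the group were Dnajc11, a protein of the cristae organising complex, Dnajc15 and Dnajc19, J-domain proteins of the import motor, and Dnajc30, linked to the ATP synthase. Dnajc30 had 10.4, 11.0 and 10.1 FPKM with ivermectin, 9.33, 9.10 and 9.56 FPKM with importazole, and 10.0, 8.63 and 8.93 FPKM in vehicle. It was just above vehicle with ivermectin, with a limma adjusted p of 0.229. Dnajc19, at 23.4, 24.9 and 24.2 FPKM with ivermectin, 23.0, 24.3 and 28.9 FPKM with importazole, and 27.6, 25.6 and 23.8 FPKM in vehicle, was the member with a negative change (−0.08, 95% interval −0.28 to 0.11). The levels of Dnajc19 are sums of 2 lines of that symbol. Line 1 had 12.7 to 16.3 FPKM with ivermectin, 18.8 to 19.0 FPKM with importazole and 14.1 to 18.4 FPKM in vehicle. Line 2 had 8.62 to 10.7, 4.01 to 10.0 and 7.93 to 9.71 FPKM in the same order. With importazole, 7 of the 8 changes were positive, 3 lay above vehicle without overlap and 1 passed. Of all genes, 16.5% lay above vehicle with importazole, 1.69% passed and were higher, and 6966 of 11337 had a positive change. Hspa8, the cytosolic HSP70, gives a ratio that needs no scaling between libraries: Hspa8 over Hspa9 in FPKM was 4.15 to 4.44 with ivermectin, 5.19 to 5.50 with importazole and 6.34 to 6.61 in vehicle.

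**Figure D2:**
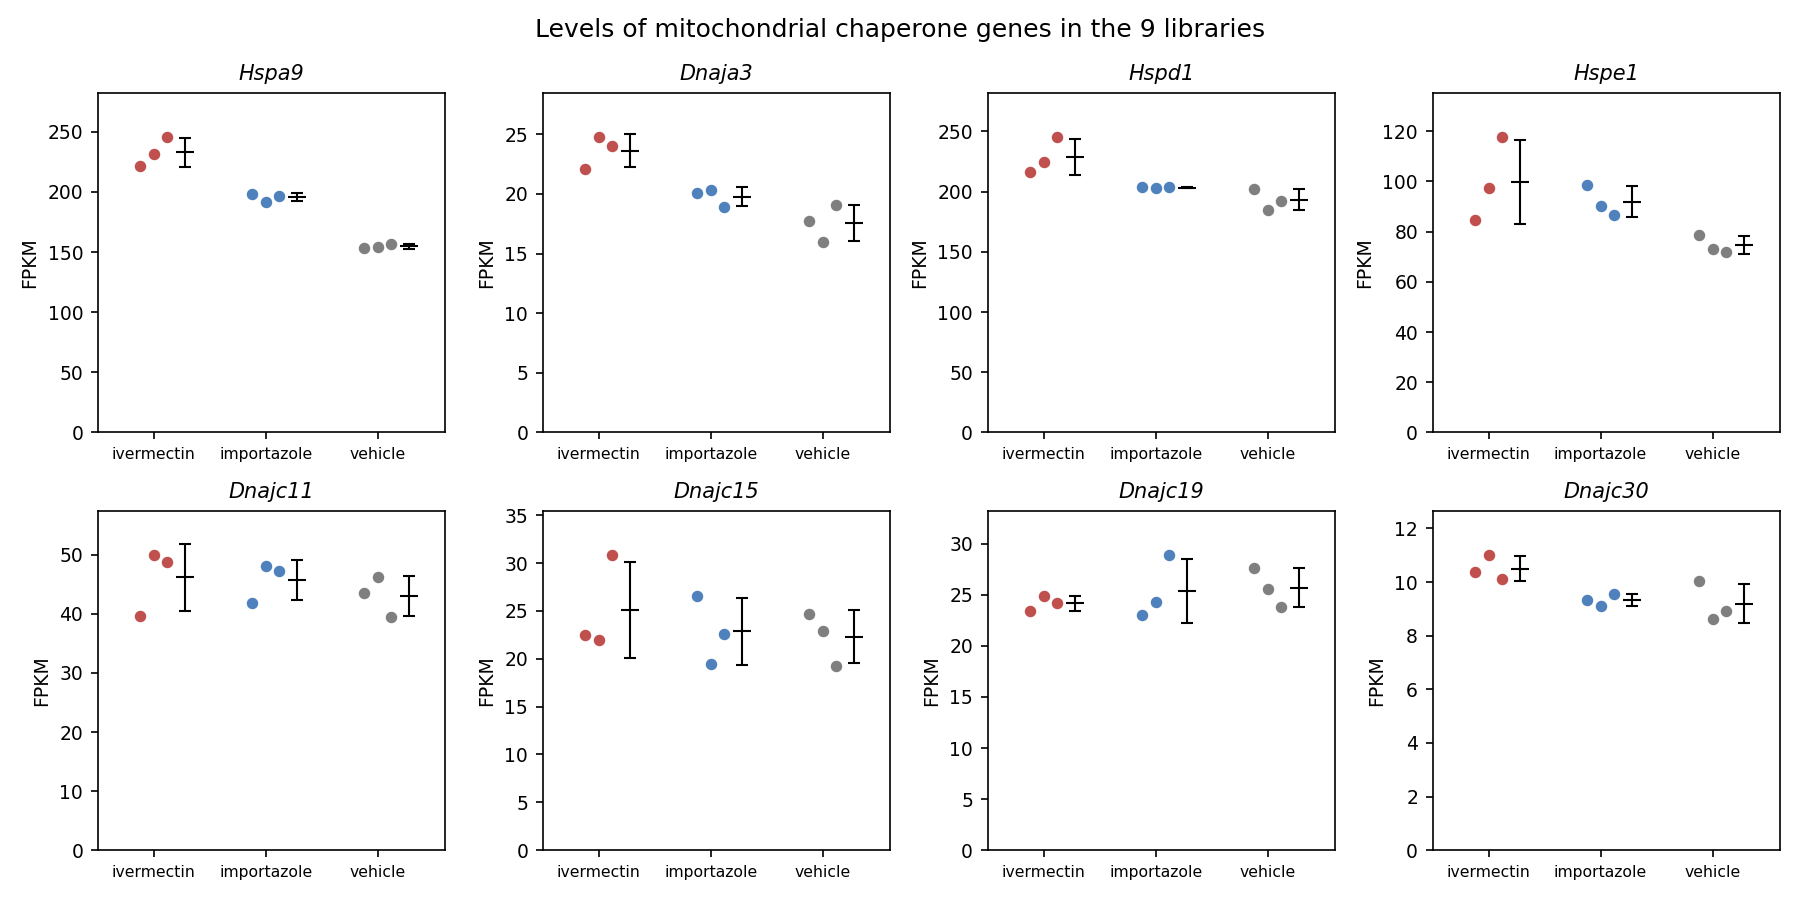
FPKM (vertical axis, from 0) of 8 mitochondrial members in each library, with ivermectin, importazole and vehicle from left to right. Points are libraries and the bar is the mean ± SD (n = 3). Hspa9, Dnaja3, Hspd1, Hspe1 and Dnajc30 have all ivermectin points above the vehicle points, and Dnajc11, Dnajc15 and Dnajc19 overlap.

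Of the 8 small heat shock proteins tested, 3 passed with ivermectin, 1 higher and 2 lower, where 1.79% of all genes were higher and 2.52% lower. With importazole 1 passed, lower, where 0.565% of all genes were lower. The family's median log2 change was −0.11 and −0.12. The summed level of the family was 774 ± 20.9 FPKM with ivermectin, 787 ± 37.6 FPKM with importazole and 879 ± 44.2 FPKM in vehicle (SD, n = 3).

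Hspb7, a small heat shock protein of heart and skeletal muscle that binds filamin C, fell with both compounds. It had 124, 125 and 120 FPKM with ivermectin, 121, 139 and 126 FPKM with importazole, and 179, 179 and 164 FPKM in vehicle. All 6 treated libraries lay below all vehicle libraries, and the treated groups overlapped each other. The log2 change was −0.49 ± 0.07 (SE) with ivermectin and −0.43 ± 0.07 (SE) with importazole, with limma adjusted p of 0.00163 and 0.00544. Both calls held under all 20 alternatives, as did that of Hspa9 with ivermectin. Between the compounds the log2 difference was −0.06 (95% interval −0.21 to 0.08). The gene lies at 141420779 to 141425311 on chromosome 4 (+ strand, GRCm38).

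Cryab, αB-crystallin, which holds desmin and other unfolding proteins in muscle and lens, was lower with both compounds and passed with ivermectin. It had 202, 211 and 198 FPKM with ivermectin, 206, 218 and 193 FPKM with importazole, and 273, 254 and 233 FPKM in vehicle. Again no treated library reached the lowest vehicle library. The log2 change was −0.31 ± 0.07 (SE) with ivermectin (limma adjusted p 0.0347) and −0.29 (95% interval −0.45 to −0.14) with importazole (limma adjusted p 0.0629). The ivermectin call held under 10 of 20 alternatives and ended when any ivermectin library, vehicle 1, vehicle 2 or importazole 1 was left out, with adjusted p of at most 0.184 over the alternatives. With importazole it passed under the 3 other scalings and with a filter at 5 FPKM. Cryab (chromosome 9, 50751325 to 50756636, + strand, GRCm38) overlaps its neighbour Hspb2 on the opposite strand by 252 exon bases. Hspb2 had 31.2, 28.7 and 29.5 FPKM with ivermectin, 27.0, 27.3 and 28.1 FPKM with importazole, and 33.3, 31.6 and 29.4 FPKM in vehicle, and did not pass (limma adjusted p 0.57 and 0.19).

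The cardiomyocyte marker list was mixed. Tnnc1, Myh6 and Actc1, of the sarcomere, fell with both compounds, with log2 changes of −0.47, −0.44 and −0.23 with ivermectin and −0.44, −0.37 and −0.43 with importazole (limma adjusted p of 0.00146 to 0.0321). Myl7 fell with ivermectin (−0.29), Nppa rose with importazole (0.62), and Tnnt2, Tnni3 and Ryr2 passed against vehicle with neither compound. The sum of the list did not overlap between ivermectin and vehicle, and overlapped between importazole and vehicle. Its part in the lower levels of Hspb7 and Cryab was not tested. Of the 5 small heat shock proteins best known from muscle (Hspb2, Hspb3, Hspb6, Hspb7 and Cryab, grouped after the values were seen), 5 had a negative change with each compound. Over all genes, 6046 of 11337 changes were positive with ivermectin and 6966 with importazole. With ivermectin 2 of the 5 passed, where 2.52% of all genes were lower, and with importazole 1 passed, where 0.565% were lower. Hspb3 lay near the filter, with 95% intervals of −0.79 to 0.25 with ivermectin and −0.57 to 0.48 with importazole. Hspb1, Hspb8 and Hspb11 were not put in this group, so the counts describe the genes listed and no more. Hspb8 had positive changes, 0.18 with ivermectin and 0.10 with importazole, as had Hspb11. Hspb1 had −0.07 with ivermectin and 0.05 with importazole. Hspb6, HSP20, which is phosphorylated in beating heart cells, had 70.1, 75.1 and 67.2 FPKM with ivermectin, 66.3, 72.3 and 60.3 FPKM with importazole, and 77.1, 80.3 and 77.4 FPKM in vehicle. It did not overlap with vehicle in either comparison and did not pass (limma adjusted p 0.303 and 0.137).

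Hspb11 rose with ivermectin. Although numbered with the small heat shock proteins, it is best known as a subunit of the intraflagellar transport complex that builds cilia. It had 8.91, 8.97 and 8.22 FPKM with ivermectin, 6.64, 8.45 and 8.67 FPKM with importazole, and 6.57, 5.36 and 5.80 FPKM in vehicle. All treated libraries lay above all vehicle libraries, by little for importazole 1. The log2 change was 0.49 ± 0.11 (SE) with ivermectin (limma adjusted p 0.026) and 0.36 (95% interval 0.13 to 0.60) with importazole (limma adjusted p 0.117). The ivermectin call held under 13 of 20 alternatives and ended without ivermectin 1, ivermectin 2, vehicle 2 or vehicle 3, each of which left an adjusted p of at most 0.136.

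Hspb8, the small heat shock protein that works with Bag3 in selective autophagy, had 108, 119 and 115 FPKM with ivermectin, 104, 114 and 105 FPKM with importazole, and 105, 97.9 and 98.8 FPKM in vehicle. It was above vehicle in each ivermectin library and did not pass (limma adjusted p 0.141). Bag3, its partner and an HSP70 exchange factor of the muscle Z-disc, had 31.4, 35.3 and 24.9 FPKM with ivermectin, 35.7, 39.5 and 32.0 FPKM with importazole, and 42.4, 41.9 and 38.4 FPKM in vehicle. Bag3 lay below vehicle in each ivermectin library, with a log2 change of −0.42 (95% interval −0.68 to −0.16) and a limma adjusted p of 0.0734. The estimates of these partners lay on opposite sides of vehicle, and neither passed.

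**Figure D3:**
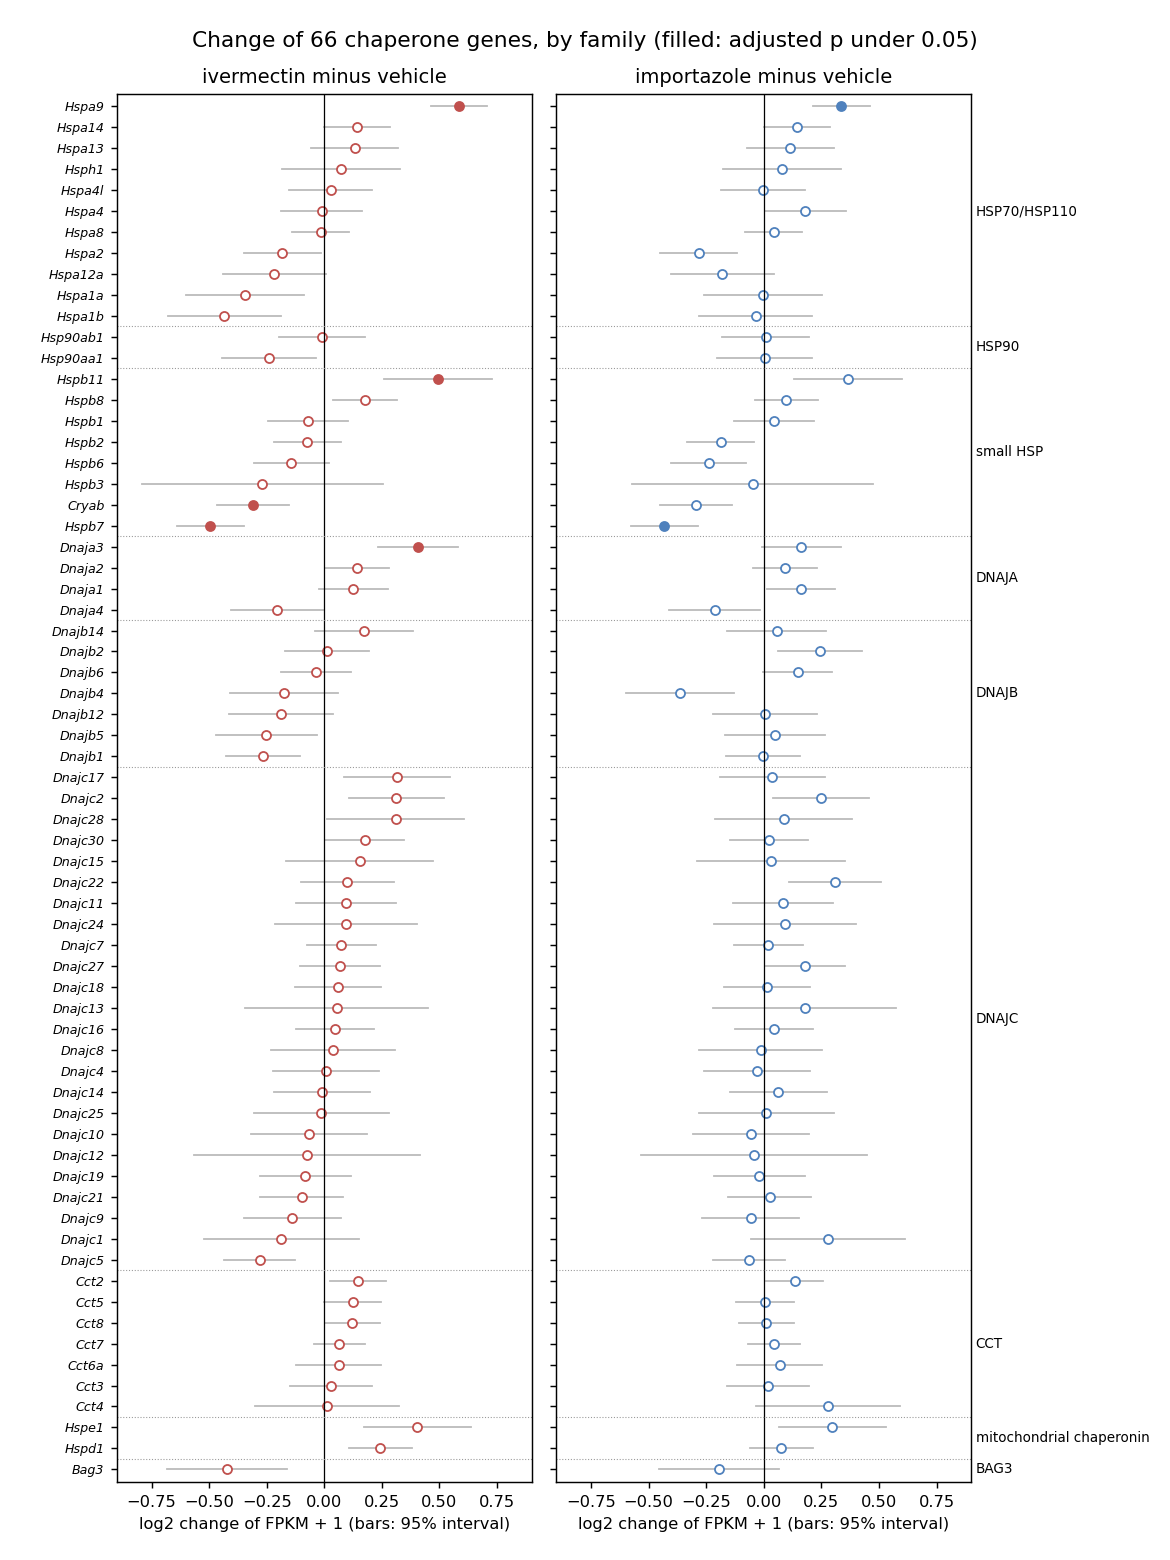
log2 change of FPKM + 1 (horizontal axis) for the 66 tested members, ordered by family down the page, with ivermectin minus vehicle on the left and importazole minus vehicle on the right; points are estimates, bars 95% intervals, and filled points have a limma adjusted p under 0.05. Changes span −0.49 to 0.58 with ivermectin and −0.43 to 0.36 with importazole, and 5 and 2 points are filled.

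Hspa8, the constitutive HSP70 of the cytosol, did not pass in any comparison. It had 942, 1027 and 1019 FPKM with ivermectin, 1032, 1054 and 1022 FPKM with importazole, and 1012, 979 and 1029 FPKM in vehicle, and the groups overlapped. Its log2 change was −0.02 (95% interval −0.14 to 0.11) with ivermectin and 0.04 (−0.08 to 0.17) with importazole. Among the HSP70 and HSP110 family only Hspa9 passed, 1 of 11 in each comparison. Of all genes, 4.31% passed for ivermectin against vehicle, 2.26% for importazole against vehicle and 3.42% between the compounds. Hspa2, an HSP70 best known from male germ cells, had 9.82, 10.1 and 8.91 FPKM with ivermectin, 8.69, 8.54 and 9.44 FPKM with importazole, and 11.3, 11.2 and 10.6 FPKM in vehicle. It was below vehicle in all treated libraries, with a limma adjusted p of 0.204 with ivermectin and 0.0908 with importazole.

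The heat-inducible HSP70 genes did not pass in either direction as deposited. Hspa1b had 3.22, 3.87 and 3.48 FPKM with ivermectin, 4.74, 5.47 and 4.70 FPKM with importazole, and 6.12, 4.63 and 4.66 FPKM in vehicle. Hspa1a had 1.03, 1.32 and 1.37 FPKM with ivermectin, 1.93, 1.90 and 1.66 FPKM with importazole, and 2.21, 1.75 and 1.59 FPKM in vehicle. For both genes all ivermectin libraries lay below all others, while importazole and vehicle overlapped. The log2 change with ivermectin was −0.43 (95% interval −0.68 to −0.19) for Hspa1b and −0.34 (−0.60 to −0.09) for Hspa1a, with limma adjusted p of 0.0557 and 0.126. Hspa1b passed under the 3 other scalings. Reads of these near-identical copies may have been split between them, so each level is uncertain.

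Dnajb1, the J-domain partner of the inducible HSP70, showed the same order. It had 13.9, 12.8 and 13.1 FPKM with ivermectin, 16.0, 15.7 and 16.6 FPKM with importazole, and 16.7, 17.0 and 14.9 FPKM in vehicle. The ivermectin libraries lay below all others, with a log2 change of −0.27 (95% interval −0.43 to −0.11) against vehicle and a limma adjusted p of 0.068. Against importazole the difference was −0.26 (−0.42 to −0.10, limma adjusted p 0.0767).

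Of 11 members known to be induced by heat, a group put together after the values were seen (Hspa1a, Hspa1b, Hsph1, Dnaja1, Dnaja4, Dnajb1, Dnajb4, Hsp90aa1, Hspb1, Cryab and Bag3), 9 had a negative change with ivermectin and 6 lay below vehicle without overlap, where 12.2% of all genes did. Cryab alone passed. Hspd1, Hspe1, Hspb8 and Dnajb6, which heat can also induce, were not put in the group and did not lie below vehicle with ivermectin, so the counts describe the genes listed and no more. With importazole, 7 of the 11 changes were negative, 2 lay below vehicle without overlap, where 7.07% of all genes did, and 0 passed by limma, with 4 at an unadjusted p under 0.05, where 15.8% of all genes were. Dnaja1 was 1 of these 4 and was higher with importazole. The exceptions to the lower levels included Hsph1, the HSP110 exchange factor, at 17.4, 25.6 and 20.1 FPKM with ivermectin, 20.6, 20.2 and 21.9 FPKM with importazole, and 21.0, 18.6 and 19.6 FPKM in vehicle. Its ivermectin libraries spread on both sides of vehicle, although its window carries a 3-unit match. Dnaja1, a cytosolic J-domain protein, lay above vehicle in each importazole library (51.2, 47.1 and 49.0 FPKM, against 45.6, 41.9 and 44.0 FPKM in vehicle; limma adjusted p 0.282).

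**Figure D4:**
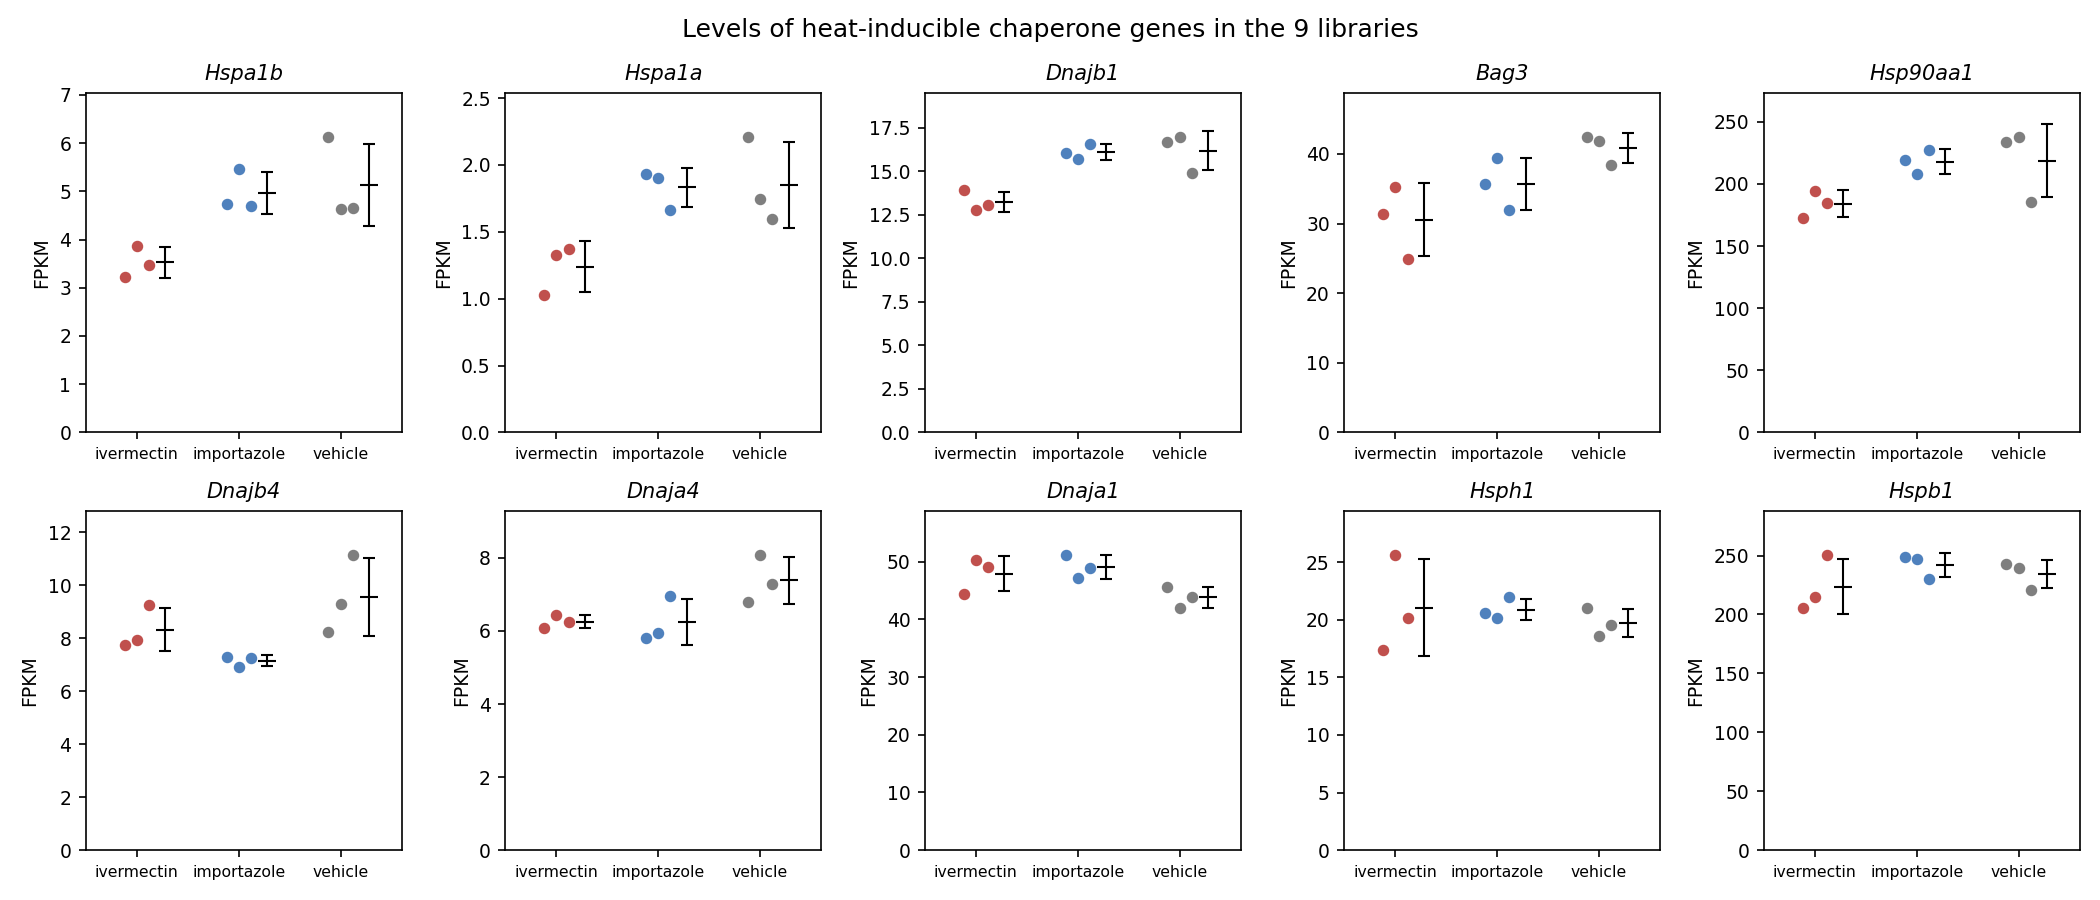
FPKM (vertical axis, from 0) of 10 heat-inducible members in each library, with ivermectin, importazole and vehicle from left to right; points are libraries and the bar is the mean ± SD (n = 3). Hspa1b, Hspa1a and Dnajb1 have all ivermectin points below the points of both other groups, and Hsph1 and Hspb1 overlap. Cryab, the heat-inducible member that passed with ivermectin, is drawn in the plot of 6 chaperone genes and not here.

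HSF1, the regulator of these genes, did not pass either. Hsf1 had 16.6, 19.8 and 17.4 FPKM with ivermectin, 19.9, 21.3 and 19.6 FPKM with importazole, and 22.4, 20.3 and 19.1 FPKM in vehicle, with overlap and a limma adjusted p of 0.234 for ivermectin. Hsf2, a relative that acts in development, had a log2 change of 0.03 (95% interval −0.27 to 0.34) with ivermectin and 0.09 (−0.21 to 0.39) with importazole.

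HSP90 has an inducible and a constitutive form in the cytosol. The inducible form Hsp90aa1 had 173, 194 and 185 FPKM with ivermectin, 219, 208 and 227 FPKM with importazole, and 233, 238 and 185 FPKM in vehicle. The constitutive form Hsp90ab1 had 957, 1040 and 1036 FPKM with ivermectin, 961, 1065 and 1048 FPKM with importazole, and 1139, 1030 and 900 FPKM in vehicle. Neither passed, and the 3 groups overlapped for Hsp90ab1. Within a library, Hsp90ab1 over Hsp90aa1 in FPKM was 5.35 to 5.60 with ivermectin, 4.39 to 5.13 with importazole and 4.33 to 4.88 in vehicle, so ivermectin lay above the other groups. The log2 change of Hsp90aa1 with ivermectin was −0.24 (95% interval −0.44 to −0.03, limma adjusted p 0.178).

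The DNAJB family passed 0 of 7 with limma in each comparison, with 2 of 7 at an unadjusted p under 0.05 against vehicle for each compound and 4 of 7 between the compounds, beside 20.7%, 15.8% and 19.0% of all genes. Its median log2 change was −0.18 with ivermectin and 0.05 with importazole. Dnajb4, a cytosolic J-domain protein found in heart and skeletal muscle, had 7.76, 7.94 and 9.25 FPKM with ivermectin, 7.30, 6.91 and 7.25 FPKM with importazole, and 8.24, 9.31 and 11.1 FPKM in vehicle. Importazole was below both other groups without overlap, with a log2 change of −0.37 (95% interval −0.60 to −0.13, limma adjusted p 0.116). Dnajb2, which sorts client proteins to the proteasome, had 10.2, 11.8 and 9.95 FPKM with ivermectin, 12.4, 12.6 and 13.0 FPKM with importazole, and 10.1, 10.1 and 11.4 FPKM in vehicle. It was the reverse case, with importazole above both other groups (log2 change 0.25, 0.06 to 0.43, limma adjusted p 0.17). Dnajb6, which keeps aggregation-prone proteins soluble and whose window holds 3 units, was highest with importazole, at 21.6, 19.6 and 21.1 FPKM, against 18.9, 18.3 and 17.3 FPKM with ivermectin and 19.0, 17.9 and 19.0 FPKM in vehicle (limma adjusted p 0.325 for importazole).

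The DNAJC family is the most varied, since its members share little beyond the J domain, and 0 of 24 passed with limma in each comparison. With ivermectin 5 of 24 and with importazole 3 of 24 had an unadjusted p under 0.05 against vehicle, and between the compounds 4 had, shares near or below the 20.7%, 15.8% and 19.0% of all genes. Dnajc5, cysteine string protein, an exocytosis chaperone of secretory vesicles, had 46.0, 48.8 and 43.9 FPKM with ivermectin, 53.6, 54.3 and 53.5 FPKM with importazole, and 58.8, 59.3 and 51.2 FPKM in vehicle. It lay below both other groups with ivermectin, with a log2 change of −0.28 (95% interval −0.44 to −0.13, limma adjusted p 0.0509), and passed under each of the 3 other scalings. Dnajc2, which sits on the ribosome with Hspa14, had 17.2, 17.4 and 20.1 FPKM with ivermectin, 17.9, 15.9 and 18.5 FPKM with importazole, and 16.2, 13.4 and 13.9 FPKM in vehicle. Its ivermectin libraries were above vehicle (limma adjusted p 0.096). Hspa14, its partner on the ribosome, had 23.8, 22.6 and 21.6 FPKM with ivermectin, 23.2, 23.4 and 21.6 FPKM with importazole, and 20.9, 19.9 and 20.6 FPKM in vehicle. All treated libraries of Hspa14 were above vehicle, with a limma adjusted p of 0.251 and 0.317. Dnajc22 was highest with importazole, at 17.4, 16.6 and 15.0 FPKM, against 13.4, 14.5 and 14.2 FPKM with ivermectin and 14.5, 11.5 and 13.1 FPKM in vehicle (limma adjusted p 0.12 for importazole). Dnajc17 had the highest change of the family with ivermectin, 0.31 (95% interval 0.08 to 0.54, limma adjusted p 0.12). Dnajc8 had the highest mean level, 65.3 FPKM over the 9 libraries, and its log2 change was 0.04 with ivermectin and −0.01 with importazole.

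The CCT ring folds actin and tubulin. None of its 7 tested subunits passed with limma in any comparison, and with ivermectin 2 and with importazole 1 had an unadjusted p under 0.05, beside 20.7% and 15.8% of all genes. Its 7 log2 changes with ivermectin were all positive, from 0.01 to 0.15, with a median of 0.07, beside 0.01 over all genes. The summed level of the 7 subunits was 1042 ± 62.5 FPKM with ivermectin, 1029 ± 25.4 FPKM with importazole and 986 ± 30.5 FPKM in vehicle (SD, n = 3). Cct2 had 86.1, 83.4 and 89.7 FPKM with ivermectin, 84.4, 89.0 and 83.6 FPKM with importazole, and 76.3, 79.0 and 78.7 FPKM in vehicle, above vehicle without overlap for both compounds (limma adjusted p 0.173 and 0.281). Cct4 had the highest change with importazole, 0.28 (95% interval −0.04 to 0.59, limma adjusted p 0.376), and the lowest with ivermectin, 0.01. Cct5 had the highest mean level, 205 FPKM over the 9 libraries, and the lowest change with importazole, 0.005. The subunit gene Tcp1, which the symbol rule does not cover, had 256, 273 and 314 FPKM with ivermectin, 262, 242 and 276 FPKM with importazole, and 271, 248 and 264 FPKM in vehicle, with overlap. The CCT median with importazole changed sign under other scalings, to −0.03 under quantile normalization, beside 0.04 as deposited.

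Beyond the members, 65 other genes of the chaperone system were tested. With ivermectin 3 passed against vehicle, a share near the 4.31% of all genes: Ppid and Clpp rose and Itgb1bp2 fell. With importazole 0 passed by limma, with 8 at an unadjusted p under 0.05, where 15.8% of all genes were. Clpp, the protease subunit that degrades unfolded proteins of the mitochondrial matrix, had 27.8, 26.6 and 30.5 FPKM with ivermectin, 25.0, 24.5 and 22.0 FPKM with importazole, and 22.9, 20.9 and 20.2 FPKM in vehicle (log2 change with ivermectin 0.39 ± 0.08 SE, limma adjusted p 0.02). Ppid, a cyclophilin that docks on HSP90, had 21.7, 20.6 and 25.6 FPKM with ivermectin, 20.7, 20.3 and 22.1 FPKM with importazole, and 16.9, 16.0 and 16.9 FPKM in vehicle (0.42 ± 0.08 SE, limma adjusted p 0.018). For both genes the ivermectin libraries lay above all vehicle libraries. Itgb1bp2, melusin, an HSP90 partner of striated muscle, was near the filter, at 0.861, 0.714 and 0.725 FPKM with ivermectin, 1.09, 1.06 and 0.814 FPKM with importazole, and 1.39, 1.68 and 1.27 FPKM in vehicle. Its limma adjusted p with ivermectin was 0.0471 and its call held under 5 of 19 alternatives, in none of the 9 with a library left out. The calls of Clpp and Ppid held under 14 and 15 of 20, and both ended without vehicle 2. Dnajb11 of the endoplasmic reticulum was lower with ivermectin than with importazole, at 58.3, 61.5 and 64.3 FPKM with ivermectin and 70.9, 76.8 and 73.3 FPKM with importazole (log2 difference −0.26 ± 0.06 SE, limma adjusted p 0.0459, held under 4 of 20 alternatives).

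Of 7 mitochondrial quality-control genes outside the rule (Trap1, Grpel1, Grpel2, Lonp1, Clpp, Clpx and Clpb, grouped after the values were seen), 7 had a positive change with ivermectin, from 0.04 to 0.39, 2 lay above vehicle without overlap, where 12.4% of all genes did, and 1, Clpp, passed, where 1.79% of all genes were higher. Over all genes, 6046 of 11337 changes with ivermectin were positive. Trap1, the HSP90 of mitochondria, had 25.7, 28.6 and 30.1 FPKM with ivermectin, 26.5, 27.3 and 26.4 FPKM with importazole, and 26.8, 22.9 and 27.4 FPKM in vehicle, with overlap. Grpel1, the exchange factor of Hspa9, had a log2 change of 0.04 (95% interval −0.10 to 0.18) with ivermectin.

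Just inside the filter lay Hspb3, a muscle small heat shock protein that reached 1 FPKM in 4 libraries, with a range of 0.112 to 1.12 FPKM, Hspa1a and Dnajb14. Just outside lay Hspa1l at 0.0867 to 0.404 FPKM, Cct6b at 0.0878 to 0.226 FPKM and Dnajb13 at 0.00626 to 0.168 FPKM. Of the 66 members tested, 16 share exon bases with a tested gene on the opposite strand and 2 with one on the same strand.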

How the data were processed

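The deposited values are FPKM per gene symbol, 1 file a library, per the file headers; per the submitters' processing notes, Cufflinks, STAR, Bowtie and Bowtie2 were used with builds mm10 and GRCm38, with no versions or roles given. The sources used here do not give the annotation or the use of strand. Lines of a symbol listed more than once (48 symbols) were summed. The 11337 genes that reached 1 FPKM in 3 or more of the 9 libraries were fitted as log2(FPKM + 1) with limma 3.58.1 in R 4.3.3 (group means of all 9 libraries, 6 residual degrees of freedom, robust empirical Bayes with trend, two-sided, Benjamini-Hochberg over all genes tested). Fold changes are on this scale and understate those of low genes. Intervals are 95% intervals of the fit. The depth is known only as relative depth, from steps of the low values.

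Members and lists were chosen with earlier results of these data known. Named members were those that passed in any comparison, Hspb7, Cryab and Hspa8, the highest and the most changed of each family and those nearest the filter, and from the other list those that passed, with Hsf1, Hsf2 and Tcp1. Dnajc2, Dnajc19, Dnajc30, Hspa14, Hspb2, Hspb6, Hspb8, Hsph1, Trap1 and Grpel1 were named after their values were seen. Alternatives were other pseudocounts, filters, scalings, fits and libraries left out. Exon overlaps come from the GENCODE annotation of GRCm38, and promoter windows from RefSeq.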

Additional observations from a re-analysis of the deposited data

How the results depend on the processing

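No call reversed under any of the 20 alternatives. The count of members that passed for ivermectin against vehicle, 5 as reported, was 2 with no filter, 8 with a filter at 5 FPKM, 9 under quantile normalization, median-of-ratios scaling or equal sums without Yam1 (5 higher and 4 lower, with 5.40%, 5.63% and 5.41% of all genes passing), 3 in a fit to the 6 libraries compared, and 2 without vehicle 2 and ivermectin 3 together, which list Yam1 at 0. Leaving out 1 library at a time gave 2 to 6, the lowest without vehicle 2 and 3 without ivermectin 2. For importazole against vehicle, 2 as reported, the count was 3 under the other scalings (1 higher and 2 lower, against 1 and 1) and 1 to 2 with a library left out, 1 without importazole 1 or vehicle 2. For ivermectin against importazole, 1 as reported, it was 0 with no filter, in the 6-library fit, with no trend and without the same pair of libraries, 3 under quantile normalization, 2 under both other scalings and 0 to 2 with a library left out. The cause was not tested.

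Nothing in the labels says that replicate numbers pair the samples. Same-numbered deviations correlated at −0.21 to 0.14, and the highest correlation with another number was −0.05 to 0.31. Whether the samples are paired was not determined. With the replicate number as a block, 5, 2 and 0 members passed in the 3 comparisons, with Bag3 in place of Hspb11 for ivermectin.

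With 3 libraries a group and only relative depth known, the smallest detectable change of a low gene was not determined.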
